A study of Mus musculus with 855 samples.

Results

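The cells described here are single starburst amacrine cells from mouse retinas at P16, divided by *Fezf1*. A cell was placed in the group with *Fezf1* when it held at least 1 estimated sequenced fragment of this gene (with a small tolerance for rounding), and in the group without *Fezf1* below that. The rule gave 36 cells with and 150 cells without *Fezf1*, out of 855 cells in the whole series. Because both groups were selected on the measured *Fezf1* fragments, *Fezf1* itself is described below without a test. All cells came from ChatCre/+; ROSA-LSL-tdTomato/+ mice on a C57BL/6 background, in which Cre made from the *Chat* locus switches on the red fluorescent protein tdTomato in cholinergic cells, and tdTomato-positive cells were sorted one by one. Earlier cells from the same cross, collected at P1, P4, P8 and P11, served for comparison, and no age received a treatment. The P16 cells carry no subtype in their labels, but their names divide them into set a (91 cells, 21 with *Fezf1*) and set b (95 cells, 15 with *Fezf1*). The labels do not say which mouse a cell came from, so the P16 cells count as 1 pool, no test was made among them, and sets a and b are shown side by side as a check within that pool.

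Starburst cells are the cholinergic amacrine cells of the retina. They release acetylcholine and GABA and supply the inhibition that makes direction-selective ganglion cells prefer 1 direction of motion. ON starburst cells, displaced to the ganglion cell layer, stratify in the ON sublayer of the inner plexiform layer, and OFF starburst cells, in the inner nuclear layer, stratify in the OFF sublayer. *Fezf1*, which encodes a zinc finger transcription factor, marks ON starburst cells, and *Rnd3*, which encodes an atypical small GTPase, marks OFF starburst cells. The comparison asks which genes still follow *Fezf1* at P16.

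The P16 cells carried the markers of starburst cells in both groups. *Slc18a3*, the vesicular acetylcholine transporter, had a fragment in 36 of 36 cells with and all but 1 of 150 cells without *Fezf1*. *Gad1*, the GABA-synthesizing enzyme, had a fragment in every P16 cell, and *Isl1*, a transcription factor of starburst cells, in 36 of 36 cells with and 96% of cells without *Fezf1*. *Megf10*, a receptor that spaces starburst cells in their mosaic, was found in 35 cells (18.8%). Depth was close in the groups, with a median of 273722 fragments per cell with and 265170 without *Fezf1*, 2619.5 and 2561.5 detected genes (FPKM above 0.1), and 3.41% and 3.31% of summed FPKM from mitochondrial genes. Of the listed markers of other retinal cells, a pair was common. *Tfap2b*, on the horizontal cell list and also a transcription factor of amacrine cells, was present in 88.9% of cells with and 92% without *Fezf1*, and *Prkca*, on the bipolar cell list, in 50% and 46%. The other 2 horizontal and 5 bipolar cell markers had no fragment in any P16 cell. No marker on the cone, microglia, endothelium and other amacrine lists was found in more than 13 cells (*Kdr*). None of the 7 ganglion cell markers was found in a cell with *Fezf1*. Among the Muller glia markers, *Glul* was found in 4 and 7 cells, and *Apoe* in 6 and 15 cells. The summed FPKM of the 7 Muller glia markers ran from 0 to 519.9 with *Fezf1* and from 0 to 1067 without it, with a median of 0 in both. The sexes were mixed at P16. The Y-linked gene *Eif2s3y* was found in 34.4% of P16 cells, 52.4% at P1 and 29.5% at P8, but in 0.541% at P4 and 0% at P11. The ages thus differed in sex as well, and the part of sex in differences between ages was not tested. *Xist* had a fragment in 10 of 36 cells with *Fezf1* (27.8%, 95% interval 14.2 to 45.2) and 26 of 150 without it (17.3%, 11.6 to 24.4). *Eif2s3y* had one in 8 of 36 (22.2%, 10.1 to 39.2) and 56 of 150 (37.3%, 29.6 to 45.6). The other listed Y-linked genes did not follow it. *Ddx3y* was present in 13.9% and 14.7% of cells, *Kdm5d* in 22.2% and 12.7%, and *Uty* in 22.2% and 11.3%.

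*Fezf1* (chr6:23245044-23248362 in mm10) was still found at P16. Of all P16 cells, 19.4% held it (exact 95% interval 13.9 to 25.8), 23.1% in set a (14.9 to 33.1) and 15.8% in set b (9.12 to 24.7). Earlier it had been found in 37.1% (P1), 35.1% (P4), 50% (P8) and 15% (P11) of cells. Intervals on shares cover counting error only. In the cells that held it at P16, *Fezf1* ran from 1 to 267 fragments with a median of 96.5, and from 1.28 to 579 FPKM with a median of 157.2. Among positive cells of the earlier ages the median FPKM was lower, from 67.02 (P11) and 72.7 (P8) to 94.8 (P1) and 108.6 (P4). Their median fragments were 73 (P1), 50 (P4), 88 (P8) and 51 (P11), so that P8 lay closer to P16 by fragments than by FPKM. These differences between ages were not tested. The P16 medians were 200.1 FPKM in set a and 145.7 in set b. No P16 cell lay between 0 and the threshold, the lowest cells inside it held 1 fragment, and 6 of the 36 cells held fewer than 10 fragments.

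*Rnd3* (chr2:51130438-51149111) was found in few P16 cells, so that most cells without *Fezf1* were cells with neither gene. At P8, 64 of the 83 cells without *Fezf1* held *Rnd3* (77.1%), and at P11 76.5% did. At P16 11 of 150 did (7.33%, 3.72 to 12.7), and 74.7% of all P16 cells held neither gene. Among cells with *Rnd3*, the median was 32.1 FPKM at P16, against 253 (P11), 331 (P8), 761 (P4) and 568 (P1). Of the cells with *Fezf1*, 14 of 53 held *Rnd3* at P1, 19 of 65 at P4, 1 of 83 at P8, 0 of 21 at P11 (which allows a share of up to 14.3%) and 2 of 36 at P16 (5.56%, 0.680 to 18.7). The P16 interval with *Fezf1* overlapped the one without it. Both cells with both genes were in set b, and they held 76 and 267 *Fezf1* fragments beside 10 and 1 *Rnd3* fragments.

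**Figure D1:**
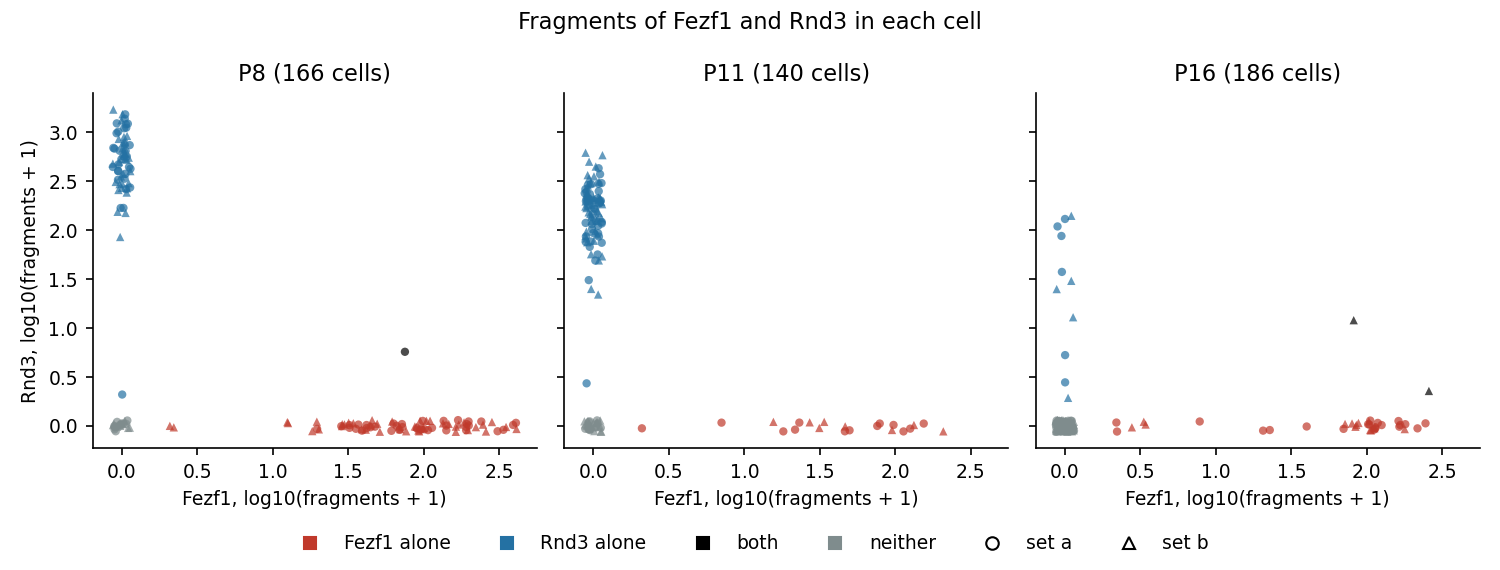
Fragments of Fezf1 (x axis) and Rnd3 (y axis) in each cell at P8, P11 and P16, as log10(fragments + 1), with a small random shift so that cells at 0 can be seen. Circles are cells of set a and triangles cells of set b. At P8 and P11 most cells hold 1 of the genes at a high level, and at P16 74.7% of cells sit at 0 for both.

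To find the genes that accompanied *Fezf1* before P16, mean FPKM in cells with and without *Fezf1* was compared over P1, P4, P8 and P11 with limma, each age as a block and as 1 replicate. Of 11795 genes tested, 9 were lower with *Fezf1* (0.0763%) and 8 higher (0.0678%) at an adjusted p below 0.05, each with 1 sign over the 4 ages. These 17 genes are the ones followed to P16. The largest differences were those of genes low with *Fezf1*. *Rnd3* differed by -6.68 on the log2 scale (SE 0.47, adjusted p = 0.00204), *Igsf21*, an immunoglobulin superfamily synaptic adhesion protein, by -5.75 (SE 0.31, adjusted p = 0.000359), and *Tenm3*, a teneurin that matches synaptic partners, by -5.12 (SE 0.27, adjusted p = 0.000359). The others on this side were *Gpr26*, an orphan G protein-coupled receptor, *Efemp2*, a fibulin of the extracellular matrix, *Trhde*, an ectoenzyme that degrades thyrotropin-releasing hormone, *Camk2d*, a subunit of CaM kinase II, *Ldha*, lactate dehydrogenase A, and *Plppr1*. The genes high with *Fezf1* were *Gfra3*, a co-receptor for artemin, *Sox9*, a transcription factor, *Pcsk2*, a prohormone convertase, *Rapsn*, which clusters acetylcholine receptors at the neuromuscular junction, *Abca5*, *Lrrtm1*, a synaptic adhesion protein, *Csrp3*, a LIM domain protein, and *RP23-24C14.1*, a transcript inside the *Cntn5* locus. *Igsf21* and *Tenm3* passed in 9 of the 10 alternative fits, and each of the other 15 genes in 3 to 7. With 1 age left out, 4 of the 17 genes passed without P4, 4 without P8, 5 without P11 and 12 without P1. Counting genes outside the 17 as well, 6 passed without P11 and 16 without P1.

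None of the 17 genes passed, in its earlier direction, the rule used at P16, which required a difference of at least 2-fold and a share of cells at least 10 percentage points apart, both in set a and in set b. Many were rare by then. *Gfra3*, *Gpr26*, *Efemp2* and *Plppr1* had no fragment in any P16 cell, and 5 others were present in 1 to 13 cells. Over the 17 genes, the median share of cells with a fragment was 6.99% at P16 after 65.7% (P8) and 50.7% (P11), and over all genes of the earlier fit it was 12.9% after 51.2% and 31.4%. *Sox9* was present in 90.4% (P8) and 81% (P11) of the cells with *Fezf1*, against 28.9% and 19.3% of the cells without it, and at P16 in 0 of 36 (up to 8.33% allowed) and 1 of 150. *Gpr26* had been present in 0 of the cells with *Fezf1* at all 4 earlier ages, beside 68.7% (P8) and 42% (P11) of those without it.

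Of the 17 genes, 8 were common enough at P16 to be compared (mean FPKM of at least 1 and a fragment in at least 10% of cells). *Ldha*, *Csrp3*, *Lrrtm1* and *Abca5* were widely found in both groups, *Camk2d* in fewer cells, and *Pcsk2*, *Rapsn* and *RP23-24C14.1* in few. *Camk2d* (chr3:126596302-126846326) was present in 15 of 36 cells with (41.7%) and 64 of 150 without *Fezf1* (42.7%), at a mean of 37.96 and 55.4 FPKM. Its log2 difference was -0.99 in set a and -0.07 in set b, after -1.82, -1.77, -1.28 and -1.81 from P1 to P11. *Ldha* ran from 0 to 1721 FPKM with *Fezf1* (median 552) and from 0 to 2766 without it (median 582), so the ranges overlapped almost fully. Its log2 difference was -0.47 in set a and -0.09 in set b, after differences from -2.13 (P4) to -1.25 (P11) at the earlier ages. *Csrp3* was present in 72.2% and 64.7% of cells with log2 differences of 0.08 and 0.29, *Lrrtm1* in 52.8% and 48.7% with 0.36 and 0.07, and *Abca5* in 55.6% and 54% with 0.55 and 0.64. *Abca5* was thus the one whose 2 sets both stayed above 0.5 in the earlier direction, on the log2 scale, though not in the share of cells, which was 3.33 points higher in set a and 3.33 points lower in set b. *Pcsk2* was split, at -0.06 in set a and 1.35 in set b.

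*Rapsn* and *RP23-24C14.1* had the opposite sign in both P16 sets. *RP23-24C14.1* (chr9:9660891-10907818) was present in 5 of 36 cells with *Fezf1* (13.9%, 4.67 to 29.5) and 32 of 150 without it (21.3%, 15.1 to 28.8), and differed by -1.63 in set a and -1.28 in set b, after 1.23 to 2.48 at the earlier ages. These coordinates are those of the deposited locus, which *RP23-24C14.1* shares with *Cntn5*, a contactin. Without a stated strand, the reads of overlapping transcripts cannot be told apart. *Cntn5*, looked at after these values were seen, kept a positive sign at P16, at 0.22 and 0.85, after 1.54 over the earlier ages (adjusted p = 0.0602, limma). *Rapsn* was present in 3 of 36 and 17 of 150 cells and differed by -1.01 and -2.37. The difference of either gene between P16 and the earlier ages was not tested.

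Counting signs, 8 of the 17 genes kept their earlier sign in both P16 sets, of which 5 were among the 8 common enough to compare. Over all 6805 genes measured at both times, 24.1% did so. The median P16 log2 difference was -0.51 over the 9 genes that had been low with *Fezf1* (median -2.60 before) and 0.08 over the 8 that had been high (1.37 before), beside -0.01 over all 6842 genes tested at P16. With the cells that held *Rnd3* left out, the median of the 9 genes was -0.05. The 17 genes were chosen on their earlier values, which are therefore a description. A selection made without P11 gave 6 genes, *Rnd3*, *Slit2*, *Tenm3*, *Igsf21*, *Camk2d* and *Ldha*. At P11, which had no part in that selection, all 6 kept their sign in both sets and 3, all lower, passed the full rule, with 21 cells that held *Fezf1*. Of all genes at P11, 34.1% were lower and 18.6% higher in both sets, and 2.8% passed the rule on the lower side. At P16, 5 of the 6 kept their sign and 0 passed the rule. *Rnd3*, *Tenm3* and *Igsf21*, the 3 that passed at P11, were too rare to be compared at P16 and so could not pass. The sign of *Igsf21* rests on 2 P16 cells. *Slit2*, a guidance ligand, was present in 58.3% of cells with and 60% without *Fezf1* at P16.

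**Figure D2:**
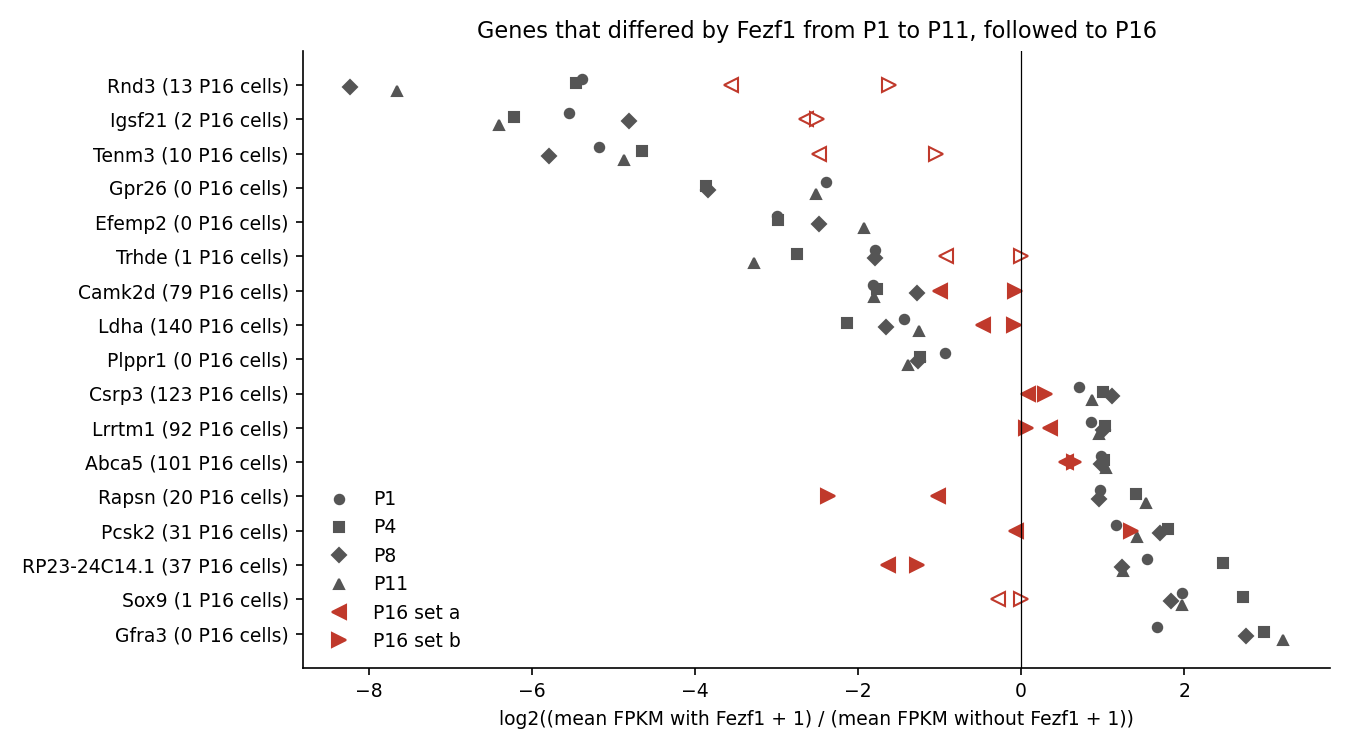
Log2 ratio of mean FPKM in cells with over cells without Fezf1, with a pseudocount of 1, for the 17 genes of the fit over P1 to P11 (dark symbols, 1 for each age), and for sets a and b at P16 (red triangles, open where the gene was too rare to be compared). The number of P16 cells with a fragment stands beside each name, and genes in 0 P16 cells have no red symbol. Most red symbols lie nearer 0 than the dark ones or across it, while set b of Pcsk2 lies among its dark symbols.

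Genes chosen at 1 age by the 2-set rule itself gave values of the same kind at P16. At P8, 55 of 10720 genes were higher with *Fezf1* in both sets (0.513%) and 57 lower (0.532%). Of the 57 lower genes, 43 could be compared at P4 and 41 at P11, and 19 and 20 of them passed the rule again in the same direction, while 0.609% of all genes at P4 and 2.8% at P11 were lower. At P16 5 of the 57 could be compared, 0 passed and 0 were lower in both sets, beside 0.818% and 27.3% of all genes, so that 5 genes can show little. Of the 55 higher genes, 15 of 41 passed again at P4 (0.904% of all genes), 7 of 44 at P11 (0.563% of all genes) and 0 of 27 at P16 (0.234% of all genes). A positive sign in both sets was found for 32 of the 41 at P4, 20 of the 44 at P11 and 8 of the 27 at P16 (29.6%), beside 21.9% of all genes tested at P16. The median share of cells with a fragment was 27.7% (P8), 20% (P11) and 1.61% (P16) for the 57 lower genes, and 32.5%, 17.1% and 8.06% for the 55 higher ones. Genes chosen at P4 gave 0 of 41 higher and 0 of 16 lower genes past the rule at P16, and 22% and 31.2% of them kept their sign in both sets, beside 21.9% and 27.3% of all genes. At these background shares, counts of 0 say little about so few genes.

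Over all genes, the P16 rule picked out few, and the differences in sets a and b were nearly uncorrelated. Of 6842 genes, 16 were higher with *Fezf1* in both sets (0.234%) and 56 lower (0.818%), while 94 passed the same limits in opposite directions in the 2 sets (1.37%). Same-direction genes were thus fewer (72) than opposite ones (94), but this order depended on the cells used. The shares were 1.62% same-direction and 1.13% opposite with the highest cell of each group left out, which takes more from the smaller group with *Fezf1*. They were 1.83% and 1.59% with at least 10 *Fezf1* fragments, and 3.99% and 3.70% without cells that held a Y-linked gene. At the earlier ages the order was the other way round, with 54 higher and 45 lower against 39 opposite at P1, 92 and 62 against 17 at P4, 55 and 57 against 14 at P8, and 54 and 269 against 194 at P11. Across genes, which are not independent replicates, the log2 differences of sets a and b had a Pearson correlation of 0.006 at P16, beside 0.059 (P1), 0.260 (P4), 0.241 (P8) and 0.075 (P11), and 49.2% of genes had the same sign in both P16 sets. The groups at P11 were smaller with *Fezf1* (13 and 8 cells) than at P16 (21 and 15 cells). Among the 1446 genes with a fragment in at least 50% of P16 cells, 1 was higher and 1 lower by the rule, and the middle 80% of log2 differences ran from -0.41 to 0.35.

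**Figure D3:**
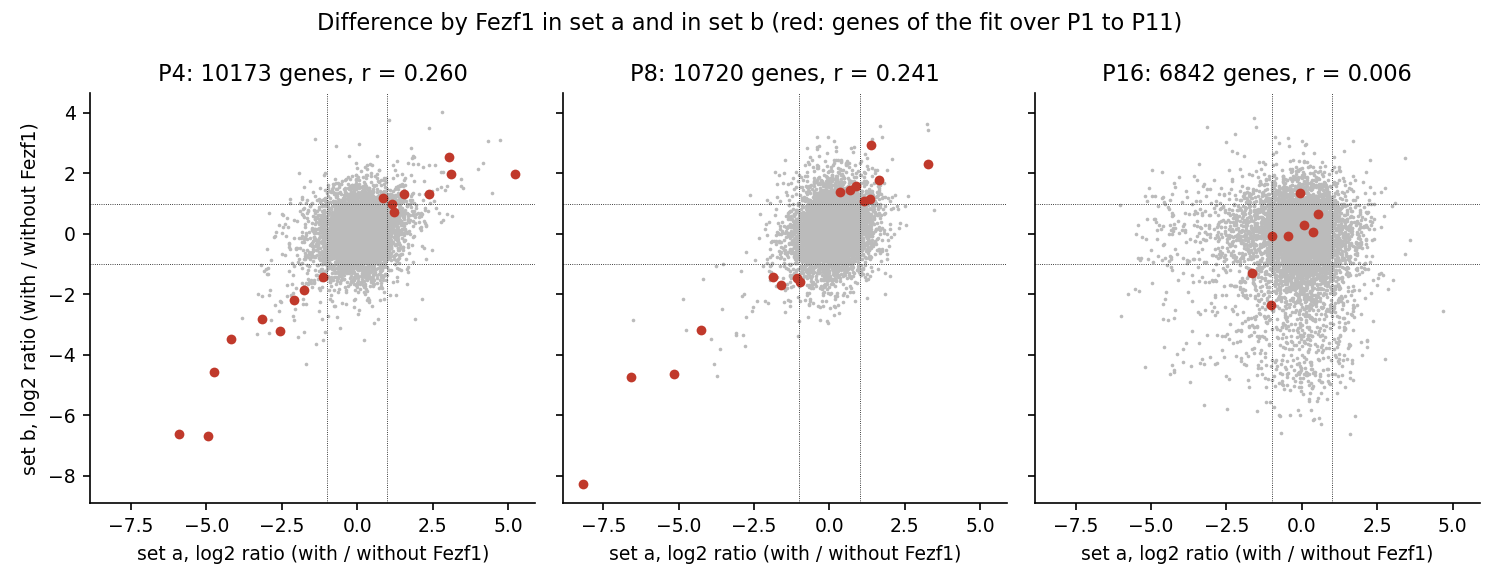
Log2 ratio of mean FPKM with over without Fezf1 in set a (x axis) and set b (y axis), 1 point a gene, at P4, P8 and P16, with r the Pearson correlation across genes. Dotted lines mark 2-fold, and red points are those of the 17 genes of the earlier fit that could be compared at that age. The red points lie along the diagonal at P4 and P8, which helped to choose them. At P16 8 remain, and Rapsn and RP23-24C14.1 lie past 2-fold below 0 in both sets, against their earlier sign. Pcsk2 lies at -0.06 (set a) and 1.35 (set b), and the others lie within 2-fold in both sets. The r of 0.006 at P16 is over all genes tested.

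The 16 genes higher with *Fezf1* were mostly rare. They were found in 8 to 27 of the 36 cells with and 12 to 95 of the 150 cells without *Fezf1*, and 12 of the 16 in fewer than 25% of all P16 cells. *Rps27a*, which encodes a fusion of ubiquitin and a ribosomal protein, was the most widely found. It ran from 0 to 682 FPKM (median 50.7) with and from 0 to 347 (median 21.2) without *Fezf1*, was present in 75% and 63.3% of cells, and was higher by 1.47 in set a and 1.10 in set b on the log2 scale. *Thtpa*, thiamine triphosphatase, was present in 30.6% of cells with (16.3 to 48.1) and 11.3% without (6.74 to 17.5), with log2 differences of 2.14 and 2.05. *Tmem132cos*, an antisense transcript of *Tmem132c*, had the largest difference with the sets pooled, at 1.69 (set a) and 3.06 (set b). Its reads cannot be told from those of *Tmem132c* without strand. *Sec11a*, a signal peptidase subunit, was present in 36.1% and 14%, *Polr2i*, a subunit of RNA polymerase II, in 38.9% and 20.7%, and *Slc29a4*, a monoamine and nucleoside transporter, in 33.3% and 16%. *Cbx5*, a heterochromatin protein, *Hat1*, a histone acetyltransferase, *Add3*, an adducin of the membrane skeleton, and *Bex4* had differences of 1.25 to 1.47 with the sets pooled. *Srfbp1*, *Armc10*, *Pagr1a*, *A330040F15Rik* and *Sfi1* were present in 8 to 10 cells with *Fezf1* each, and *Gtf3c3*, of the RNA polymerase III factor TFIIIC, in 17 cells.

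The 56 genes lower with *Fezf1* were of the same kind, and 9 of them had no fragment in any of the 36 cells. Among all 6842 genes tested the number without a fragment in those cells was also 9, so the rule had called every such gene. *Lime1*, a transmembrane adaptor, was present in 0 of 36 cells with *Fezf1* (up to 8.33% allowed) and 25 of 150 without it (16.7%, 11.1 to 23.6). *Inpp5j*, an inositol polyphosphate phosphatase, was present in 0 and 26 cells, *Proser1* in 0 and 23, *Optn*, the autophagy receptor optineurin, in 0 and 19, *Usp53* in 0 and 25, *Atxn7l3* in 0 and 22 and *Spire1*, an actin nucleator, in 0 and 22. *Armc9*, *Gtf2ird1*, *Ubap2*, *Errfi1* and *Ruvbl2* were each present in 1 of 36 cells, beside 24 to 37 of 150. *Actr3b*, a subunit of the Arp2/3 complex, and *Mphosph9* were present in 2 of 36 cells, beside 35 and 29 of 150, and *Atxn2*, an RNA-binding protein, in 4 and 40. Of these 15 genes, all but *Inpp5j* had been found in both groups at P8 in 26.5% of cells or more, *Lime1* for example in 72.3% with and 69.9% without *Fezf1*.

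Just inside the 2-fold limit lay *Gtf3c3* (1.07 and 1.03) on the higher and *Specc1* (-1.04 and -1.13) on the lower side, and just outside it *Kat2b* (1.60 and 0.99) and *Ipo13* (-1.24 and -0.97). When the cell with the highest value of each group was left out for each gene, 7 of the 16 higher genes remained and all 56 lower ones did, and 1.52% of all genes were then lower. Within each set this takes 1 cell from 21 or 15 with *Fezf1* and 1 from 70 or 80 without it. It therefore tends to lower the ratio, so that the lower genes that remained show little. With at least 10 *Fezf1* fragments required of the 30 cells then kept, the counts were 28 and 97, including 9 of the 16 and 43 of the 56, and *Sfi1* changed its sign.

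Of the 72 genes called at P16, 11 had their P16 sign at all 4 earlier ages (15.3%), beside 9.41% of all genes tested. None of the 17 genes of the earlier fit was among the 72. Of the 16 higher genes, 5 were also higher with *Fezf1* at all 4 earlier ages (31.2%), *Bex4*, *Gtf3c3*, *Hat1*, *Sec11a* and *Tmem132cos*, beside 13.5% of all genes with a positive P16 difference. Of the 56 lower genes, 6 were lower at all 4 earlier ages (10.7%), *Cplx1*, *Cul4b*, *Evl*, *Hist3h2a*, *Phf20l1* and *Sema4b*, beside 5.39% of all genes with a negative one. Their earlier differences ran from 0.0020 to 1.11 and from -1.30 to -0.08. Past 2-fold in the P16 direction at 2 or more earlier ages was 1 of the 72 genes (1.39%), close to the 1.18% of all genes tested. *Cplx1*, which encodes complexin 1 of the release machinery, is the most widely found of the 6. It was present in 11 of 36 cells with *Fezf1* (30.6%, 16.3 to 48.1) and 76 of 150 without it (50.7%, 42.4 to 58.9), at a mean of 46.7 and 115.03 FPKM and log2 differences of -1.39 and -1.10, after -0.41, -0.22, -0.29 and -0.47 from P1 to P11 (adjusted p = 0.522, limma). *Sema4b*, a transmembrane semaphorin, was present in 5 and 45 cells and differed by -1.11 and -1.59.

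Of the listed subtype and study genes, 10 were common enough to compare, and 0 passed the P16 rule. The 2 sets had the same sign for 7 of these 10, beside 49.2% of all genes. *Glra4*, *P2rx2* and *Cck*, which the study's paper does not name, were among the 7. *Sema6a*, a transmembrane semaphorin that binds A-type plexins, was present in 20 of 36 cells with (55.6%, 38.1 to 72.1) and 77 of 150 without *Fezf1* (51.3%, 43.05 to 59.6), at 0 to 494 FPKM (median 1.48) and 0 to 499 (median 0.64). Its log2 difference was 0.49 in set a and 0.52 in set b. With the sets pooled it was 0.49, above the middle 80% (-0.41 to 0.35) of genes found in at least 50% of P16 cells. *Plxna2*, its plexin receptor, was present in 80.6% (63.98 to 91.8) and 63.3% (55.1 to 71.04) of cells and differed by 0.21 and 0.38, but the share was 5.71 points higher in set a and 32.1 in set b. *Synpr*, the synaptic vesicle protein synaptoporin, had a log2 difference of 0.53 (P1), 2.37 (P4), 1.22 (P8) and 0.14 (P11), which did not pass the earlier fit (adjusted p = 0.373, limma). At P16 it was present in 100% and 95.3% of cells with a median of 611 and 703 FPKM, and differed by -0.07 and 0.005. *Chat* differed by 0.20 and 0.13, *Slc18a3* by -0.21 and 0.10, *Gad1* by 0.13 and -0.08, and *Megf10* by 1.88 and 0.36 at shares of 22.2% and 18%.

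*Glra4*, a glycine receptor subunit, *P2rx2*, an ATP-gated channel, and *Cck*, the neuropeptide cholecystokinin, were all divided among cells at P16, and none passed the rule for *Fezf1*. *Glra4* was present in 21 of 36 cells with (58.3%, 40.8 to 74.5) and 71 of 150 without *Fezf1* (47.3%, 39.1 to 55.6), up to 567 and 515 FPKM, and differed by 0.40 and 0.43. *P2rx2* was present in 47.2% (30.4 to 64.5) and 40.7% (32.7 to 48.98) and differed by 0.27 and 0.13. *Cck* was present in 44.4% (27.9 to 61.9) and 50.7% (42.4 to 58.9) and differed by -0.51 and -0.38. In set a and set b, the share of cells differed by 10 and 12.5 points for *Glra4*, 6.19 and 6.67 for *P2rx2*, and -1.90 and -6.67 for *Cck*. *Glra4* thus met the share limit of the rule in both sets but not the 2-fold limit. For each of the 3 genes the intervals overlapped, and cells at 0 and cells above 100 FPKM occurred in both groups of both sets. The intervals cover counting error only, so their overlap does not show that the groups are equal.

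**Figure D4:**
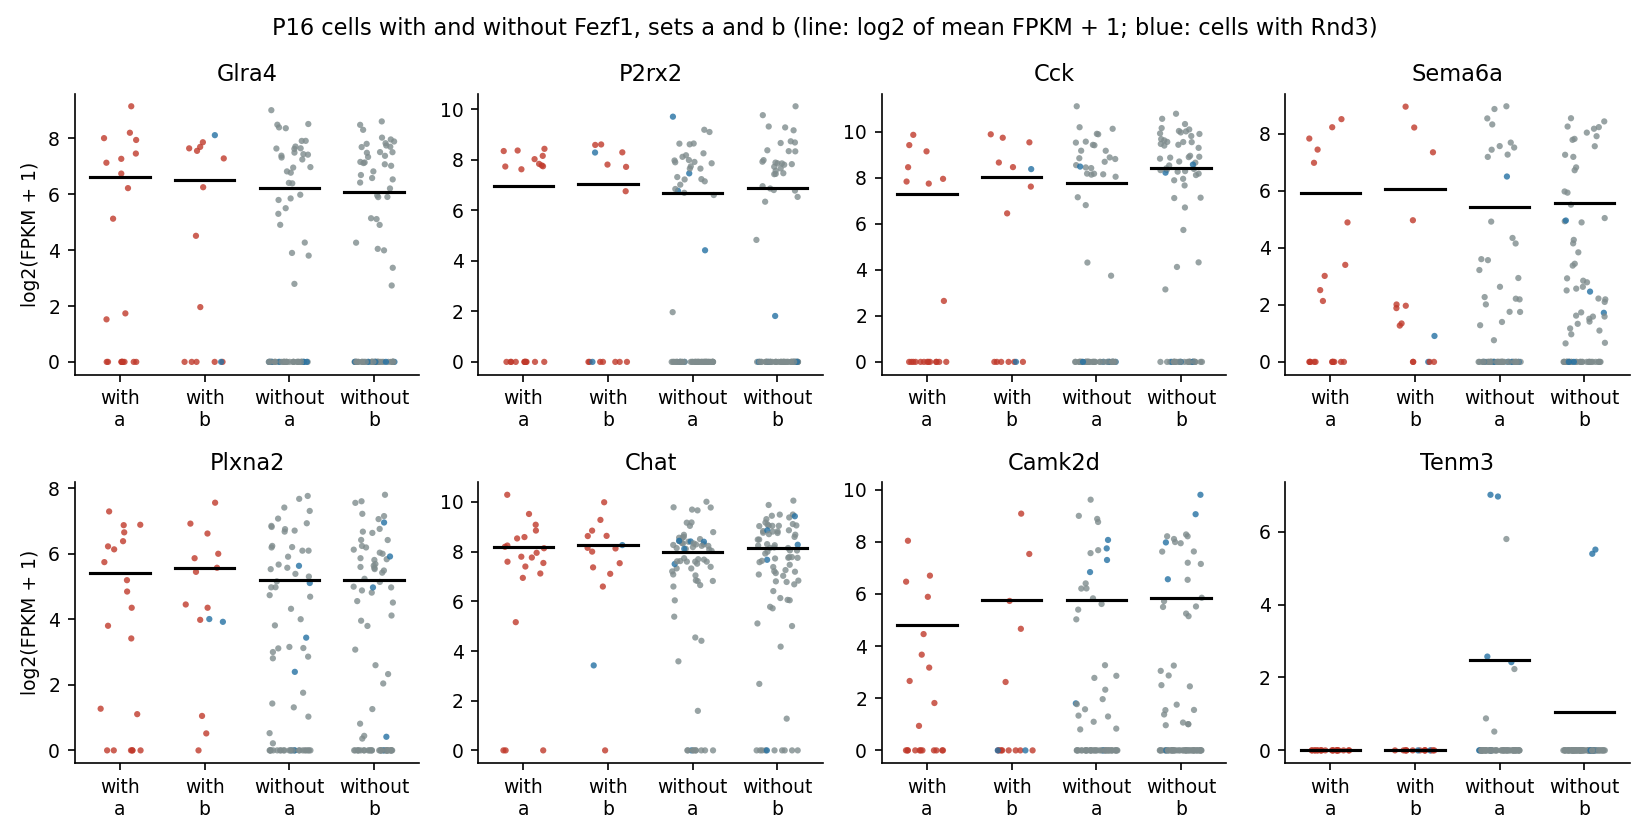
Log2(FPKM + 1) in each P16 cell with (red) and without (grey) Fezf1, in sets a and b, for 8 genes, with a horizontal line at the log2 of the mean FPKM + 1 and the 13 cells with Rnd3 in blue. The groups overlap for each gene, and Tenm3 is at 0 in all 36 cells with Fezf1, and its highest values are in cells with Rnd3.

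A lack of *Fezf1* groups cells with *Rnd3* and cells with neither gene, and at P16 these differed in some of the genes looked at. This division was made after the values above were seen. It gives 34 cells with *Fezf1* alone, 11 with *Rnd3* alone and 92.7% of the 150 cells without *Fezf1* with neither. Some of the 11 cells held few *Rnd3* fragments, the lowest numbers being 1, 2 and 4. How many of all genes differ as much between the 11 cells and the cells with neither was not tested. *Tenm3* (chr8:48227682-48869901) was present in 6 of the 11 cells with *Rnd3* alone (54.5%, 23.4 to 83.3), at 4.35, 4.95, 41.02, 44.5, 123.78 and 127.98 FPKM. It was found in 0 of 34 cells with *Fezf1* alone (up to 8.82% allowed) and in 4 cells with neither (2.88% of them, 0.790 to 7.20), so that the intervals of the cells with *Rnd3* alone and with neither did not overlap. By set, *Tenm3* was in 4 of 6 and 2 of 5 cells with *Rnd3* alone, and in 4 of 64 and 0 of 75 with neither. *Camk2d* was present in 9 of 11 cells with *Rnd3* alone (81.8%, 48.2 to 97.7), in 15 of 34 with *Fezf1* alone (44.1%, 27.2 to 62.1) and in 55 with neither (39.6%, 31.4 to 48.2), at means of 229, 40.2 and 41.6 FPKM. *Glra4* went the other way, with 0 of 11, 20 of 34 (58.8%, 40.7 to 75.4) and 71 cells (51.1%, 42.5 to 59.6), and a count of 0 of 11 allows a share of up to 27.3%. *RP23-24C14.1* was in 0 of 11, 5 of 34 and 32 cells (23% of those with neither), and *P2rx2* in 5 of 11, 16 of 34 and 56 cells (40.3%).

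At P8 and P11 the cells with neither gene were compared in the same way. *Tenm3* was in 62 of 64 cells with *Rnd3* alone at P8, in 4 of 82 with *Fezf1* alone and in 1 of 19 with neither, and at P11 in 90 of 91, 1 of 21 and 1 of 28. *Sox9* was in 7 of 64, 74 of 82 and 17 of 19 cells in the same order at P8, and in 6 of 91, 17 of 21 and 17 of 28 at P11. *Pcsk2* was in 32 of 64, 81 of 82 and 18 of 19 cells at P8, and in 25 of 91, 14 of 21 and 18 of 28 at P11. *Glra4* was in 2 of 64, 10 of 82 and 3 of 19 cells at P8, and in 2 of 91, 8 of 21 and 12 of 28 at P11. *Sox9* at P11 was thus in 81% of cells with *Fezf1* alone and 60.7% of those with neither, and *Camk2d* in 71.4% and 60.7%, beside 98.9% with *Rnd3* alone. In a comparison added after the values were seen, of the 34 cells with *Fezf1* alone against the 11 with *Rnd3* alone within sets a and b, 3 of the 17 earlier genes passed the rule in their earlier direction. *Camk2d* differed by -2.19 and -2.49 on the log2 scale, *Lrrtm1* by 7.09 and 1.79, and *RP23-24C14.1* by 3.08 and 3.42. With so few cells 6.11% of all genes were called higher, 2.1% lower and 7.28% in opposite directions, so these calls stand among many. With the cells that held *Rnd3* left out of both groups, the P16 log2 difference of *Tenm3* was -0.51 in place of -1.89, and the rule gave 19 higher and 71 lower genes, 9 and 46 of them shared with the 16 and 56.

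**Figure D5:**
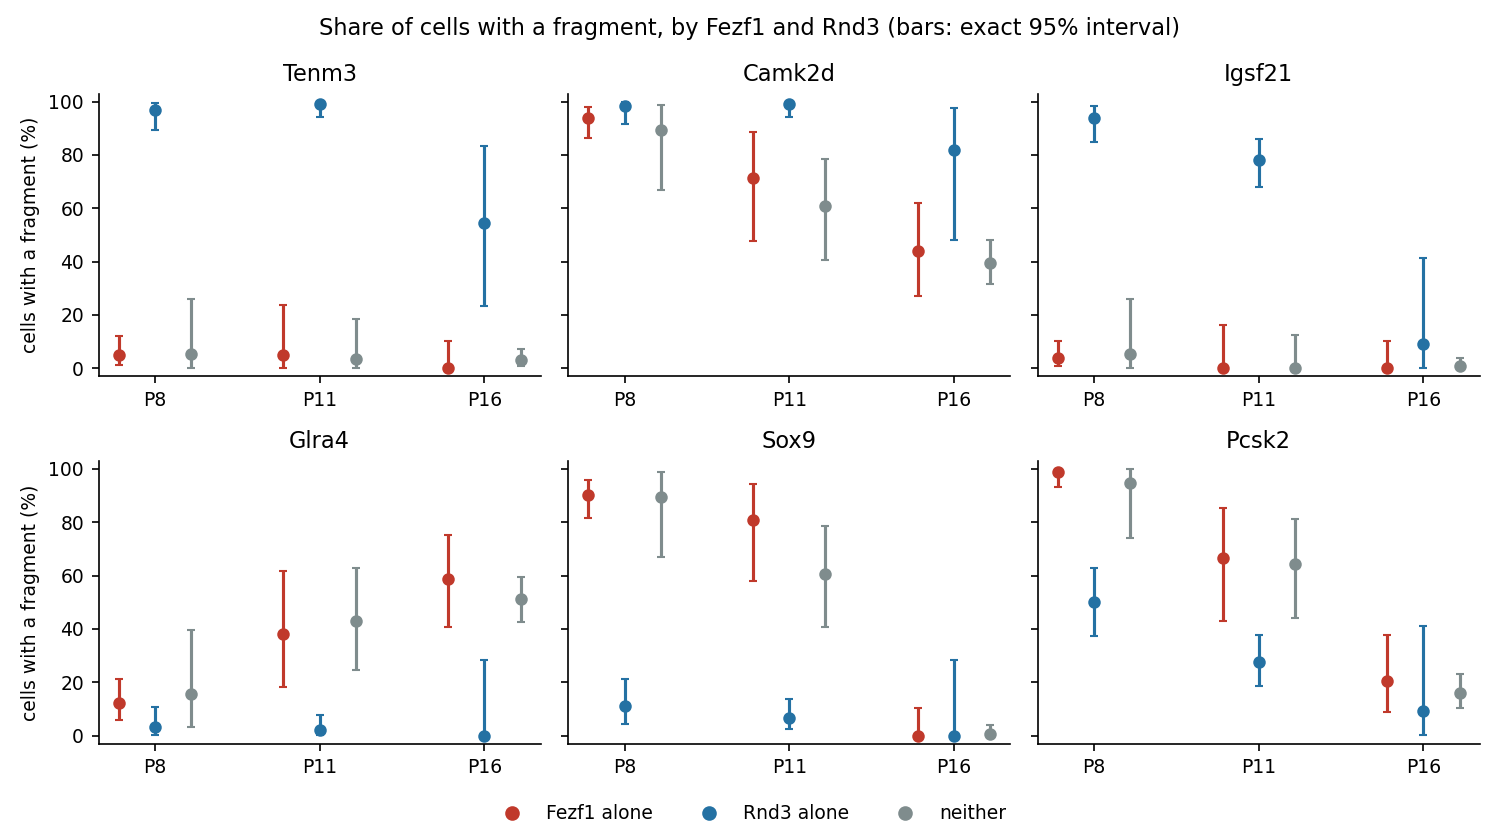
Percent of cells with a fragment of 6 genes at P8, P11 and P16, in cells with Fezf1 alone (red), Rnd3 alone (blue) and neither (grey), with exact 95% intervals that cover counting error only. At P16 34 cells are red and 11 blue. Tenm3 and Camk2d are higher in cells with Rnd3 alone at P16 and Glra4 is at 0 there, while the red and grey intervals at P16 overlap.

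Genes of pathways that starburst cells use for signalling and wiring were called at P16 about as rarely as other genes. Of the list members that could be compared, 0 were higher and 2 lower (1.47%), beside 0.234% and 0.818% of all genes. Of 27 lists of own markers, study genes, pathways and quality genes, 25 had 0 genes past the rule in either direction, and the release machinery and the semaphorins with their receptors had 1 each, both lower, *Cplx1* (1 of 23 compared) and *Sema4b* (1 of 5 compared). The release machinery as a whole had a median log2 difference of 0.07 over 23 genes, and GABA-A receptor subunits one of 0.05 over 6, near the -0.01 of all genes. Teneurins, latrophilins and FLRT proteins had the lowest pathway median, at -0.56 over 5 genes, and the cadherins and the delta protocadherins had one of 0.50 over 4 genes each. Among members common enough to compare, those past 2-fold in both sets but not 10 points apart in their share of cells were *Slc6a11*, a GABA transporter (-1.09 and -1.77), *Flrt2*, a ligand of latrophilins (-1.81 and -1.46), and *Cntnap4*, a contactin-associated protein (-1.07 and -1.93). Amacrine transcription factors ran from -0.40 to 0.98 over 11 genes, and *Fezf2*, the paralogue of *Fezf1*, was found in 0 of the P16 cells (up to 1.61% allowed). Of 13 immediate early and stress genes 3 could be compared, with a median of -0.44.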

How the data were processed

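Single cells had been sorted from retinas of 3 to 6 mice per age, amplified with Smart-seq2 and sequenced. Each deposited sample is 1 cell. Per the submitters' notes, HISAT2 2.1.0 served for alignment (build GRCm38.p6, mm10), SAMtools 1.3.1 for file handling, and Cufflinks 2.2.1 for expression. FPKM, as deposited, had been scaled by the authors to gene length and depth. The deposited signal per gene is an estimated fragment number that the authors had scaled by the cell's size factor, a ratio deposited beside it. Fragments were recovered as signal times ratio, and 95.9% of nonzero values lay within 0.01 of a whole number. They are estimates, so no count test was run. The authors' annotation release is not given in the sources used here. Each table column was matched to its cell by name, with 0 left over, among 29548 genes. Cells that the labels call filtered out were not analysed, except in 1 alternative.

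A gene was present in a cell from 0.995 fragments. Log2 differences are log2((mean FPKM with + 1) / (mean FPKM without + 1)), which understates low genes. At P16, a gene entered the comparison from a mean FPKM of 1 with a fragment in at least 10% of cells, and were called from 2-fold with shares 10 points apart in both sets. Intervals of shares are exact (Clopper-Pearson, 95%). For a count of 0, the limit that 3 counts allow is given. P1 to P11 were fitted with limma 3.58.1 (R 4.3.3) over 8 group means, with a mean-variance trend, age as a block and Benjamini-Hochberg adjustment at 0.05. Its p-values measure the spread between ages, each 1 pool. Both steps were run on simulated data with changes planted in genes that were not among the rarest. Such runs do not show how the steps treat weak differences in rare genes. Depth at P16 was 161785 to 488763 fragments per cell. Python 3.11.15, numpy 2.4.6, pandas 2.3.3, scipy 1.17.1 and matplotlib 3.10.9 were used.

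The rule for named genes gives the listed subtype and study genes, and members of the gene lists that were called at P16. It also gives up to 15 highest and 15 lowest of the genes called at P16 and of those called at the earlier ages. The cells, genes and lists were chosen with earlier results of these data known. Counts of opposite directions, the rule at other ages, genes followed from P4, P8 or a fit without P11, the division by *Rnd3*, the comparison with *Rnd3* cells within sets, and the runs without cells holding sex-linked genes were added after the data had been seen. 1 list of markers of other cells is not reported here.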

Additional observations from a re-analysis of the deposited data

Results flagged for a closer look

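*Rapsn* and *RP23-24C14.1* were higher with *Fezf1* at all 4 earlier ages and lower with it in both P16 sets, with a pooled P16 log2 difference of -1.53 for *Rapsn* and -1.47 for *RP23-24C14.1*. The difference between P16 and the earlier ages was not tested. *Rapsn* was found in 20 and *RP23-24C14.1* in 37 P16 cells. Against the 11 cells with *Rnd3* alone, none of which held it, *RP23-24C14.1* was higher in the cells with *Fezf1* alone.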

How the results depend on the processing

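Of the genes tested at P16, 0.234% were higher with *Fezf1* and 0.818% lower. These shares were 0.102% and 1.52% with the highest cell of each group left out, 0.116% and 0.628% with a fragment required in 20% of cells, 0.409% and 1.42% with at least 10 *Fezf1* fragments, 1.93% and 2.88% with the sets pooled, and 16.7% and 7.97% for *Fezf1* alone against the 11 cells with *Rnd3* alone. Without cells that held *Xist* they were 0.497% and 1.42%, and without cells that held a Y-linked gene (19 with and 72 without *Fezf1* left) 1.14% and 2.85%. In opposite directions in the 2 sets were 1.37% of genes in all cells, and from 0.808% to 3.70% under the alternatives by cells or genes within groups with and without *Fezf1*. With fragments scaled to the total of the cell, rescaled FPKM, a pseudocount of 0.1, no filter, thinned shares and without *Rnd3* cells both counts stayed within 1.5 times. In place of the 17 genes of the earlier fit, 10 passed with a pseudocount of 0.1, 52 with rescaled FPKM and 31 with the filtered-out cells. For *Fezf1* without *Rnd3* against *Rnd3* without *Fezf1*, 76 passed, and 2 did without the trend in limma. Without the filter 0 passed, where 1228 of 18540 genes had an unadjusted p under 0.05 by limma. With 1 age left out, from 4 to 16 passed, of which 4 to 12 were among the 17. Of the 17, 4 passed the P16 rule for *Fezf1* alone against *Rnd3* alone with the sets pooled (*Camk2d*, *Lrrtm1*, *Abca5* and *RP23-24C14.1*) and 3 within both sets. None passed under the other alternatives for the P16 rule, in which 3 to 10 kept their sign in both sets, or in the pool. *Sfi1* reversed to -0.91 with at least 10 *Fezf1* fragments. The causes were not tested. No paired analysis was possible because the replicate numbers in the labels only name cells, while the earlier fit sets the groups side by side within each age. At 36 cells with *Fezf1*, a gene in 0 of them could still be in up to 8.33%.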
